A study of Mus musculus with 8 samples.

Results

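The 9 genes of myoblast adhesion and fusion were examined for peaks of H3K56ac, histone H3 acetylated at lysine 56, in muscle stem cells (MuSCs). The genes were chosen by name, as 9 of 21938 protein-coding genes, and comprised 7 adhesion genes (Cdh15, Cdh2, Cdon, Boc, Neo1, Jam2 and Jam3) and 2 fusion genes (Mymk and Myof). Each gene was taken with 20 kb on either side as its window, and every peak overlapping a window by at least 1 bp was counted. The windows held 105 of the 105600 peaks of the deposited list, or 0.0994%. MuSCs were freshly isolated from C57BL/6 mice and subjected to chromatin immunoprecipitation followed by sequencing (ChIP-seq). Control and Sirt6mKO mice each gave 2 replicates of H3K56ac and 2 of input, which is chromatin that was not immunoprecipitated, 8 libraries in all. Control mice are labelled wild type, and Sirt6mKO mice carried Sirt6 fl/fl alleles and Pax7-ICNCre, a constitutively active Cre recombinase expressed from the Pax7 promoter, so that Sirt6 was deleted in the skeletal muscle lineage and not in MuSCs alone. Cells carrying Sca1, CD45 or CD31 were depleted before MuSCs were sorted by flow cytometry, by surface Integrin-a7 and CD34 or by a Pax7 reporter, and the labels give neither the age of the mice nor how many contributed to a library. The deposited peaks are 1 merged list for the series with 0 columns of values per sample, so genotypes were not compared. A listed peak may come from 1 genotype alone. No value below has a replicate error or a test. The number and width of called peaks can depend on read depth, which could not be taken into account.

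Myoblasts recognise and bind each other through cadherins, which hold neighbouring cells together by homophilic contacts, and through immunoglobulin superfamily receptors that associate with cadherins and signal toward differentiation. Fusion of the membranes follows only after commitment to differentiation and requires Myomaker, the protein product of Mymk, on the myoblast surface. H3K56ac is found at nucleosomes in active chromatin and is removed by SIRT6, and a peak records where the mark was enriched, not how much of the gene was transcribed. Quiescent MuSCs lie against the myofiber, joined to it by M-cadherin and N-cadherin, and do not express Myomaker.

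The 250 bases before the transcription start site (TSS) are shown for 3 genes, because they cover the contrasts among the promoters: Mymk, the one member without a peak over any annotated TSS, Cdh15, which was equally poor in CpG but had a TSS peak, and Neo1, the richest in CpG. The TSS used throughout is the most upstream one of a protein-coding transcript in GENCODE. Sequences were read from GRCm38.p6, the same build as mm10, and run 5′ to 3′ on the strand of the gene, with the last base next to the TSS. Capitals mark E-boxes, the letters CANNTG (the same on both strands), which are the words that MyoD family factors bind.
Mymk (chr2:27072180-27072429, minus strand): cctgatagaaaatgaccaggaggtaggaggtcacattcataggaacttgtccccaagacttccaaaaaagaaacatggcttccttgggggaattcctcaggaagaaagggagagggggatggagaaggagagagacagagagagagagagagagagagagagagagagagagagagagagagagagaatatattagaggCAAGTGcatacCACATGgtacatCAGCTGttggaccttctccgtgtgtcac
Cdh15 (chr8:122847716-122847965, plus strand): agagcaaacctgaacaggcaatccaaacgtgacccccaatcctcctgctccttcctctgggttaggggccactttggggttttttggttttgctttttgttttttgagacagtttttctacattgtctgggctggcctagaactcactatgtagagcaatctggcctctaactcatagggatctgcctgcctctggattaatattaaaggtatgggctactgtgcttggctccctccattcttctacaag
Neo1 (chr9:59036442-59036691, minus strand): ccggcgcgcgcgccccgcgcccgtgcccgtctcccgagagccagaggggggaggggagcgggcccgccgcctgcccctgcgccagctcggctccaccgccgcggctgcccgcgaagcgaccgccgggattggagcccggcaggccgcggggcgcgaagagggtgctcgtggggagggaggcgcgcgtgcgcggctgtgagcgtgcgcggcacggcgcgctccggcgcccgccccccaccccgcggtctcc
The Mymk sequence held 3 E-boxes in its last part, CAAGTG at positions -51 to -46, CACATG at -40 to -35 and CAGCTG at -28 to -23; positions count back from the TSS. Of the other promoters read, Jam3 had 1 E-box (CACCTG at -169 to -164), Cdon had 1 (CACCTG at -203 to -198), and Boc, Neo1, Myof, Cdh15 and Cdh2 had 0. At least 1 CANNTG occurred in 63.8% of the 21848 upstream windows of the same length at coding genes, CAGCTG in 12.2% and the AP-1 word TGANTCA in 5.91%. None of the member promoters read held TGANTCA. CpG dinucleotides occurred at 0.0802 of the number expected from base composition in Mymk and at 0.0733 in Cdh15, which placed both near the bottom of all windows (percentiles 10.9 and 9.97). The ratio was 1.04 in Neo1, 0.971 in Myof, 0.919 in Cdh2, 0.909 in Jam3, 0.545 in Cdon and 0.504 in Boc. Over all coding genes the median ratio was 0.714 where the TSS lay under a peak and 0.192 where it did not. Mymk was on the side of the genes without a TSS peak, whereas Cdh15 had a TSS peak at a ratio far below the median of such genes and Cdh2 had no peak over its most upstream coding TSS at a ratio above it.

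H3K56ac peaks covered 209 kb of the 1187 kb in the 9 windows, or 17.6%. Taken gene by gene, the 9 windows had a median of 15.6%. A single coding gene with the same window rule had a median of 9.53% (quartiles 1.08% and 20.6%) and a median of 4 peaks. At least 1 annotated TSS lay under a peak in 8 of the 9 members, all but Mymk, against 62.1% of coding genes. When only the most upstream coding TSS was used, 7 of 9 had a peak, all but Mymk and Cdh2, against 57.1%. All 9 had a peak within 3 kb of an annotated TSS (67.8% of coding genes) and also within 1 kb (65.4%). All 9 had a peak in the gene body (69.1%). The counts of genes with a peak thus separated few of the members, and they differed more in the extent of the peaks.

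**Figure D1:**
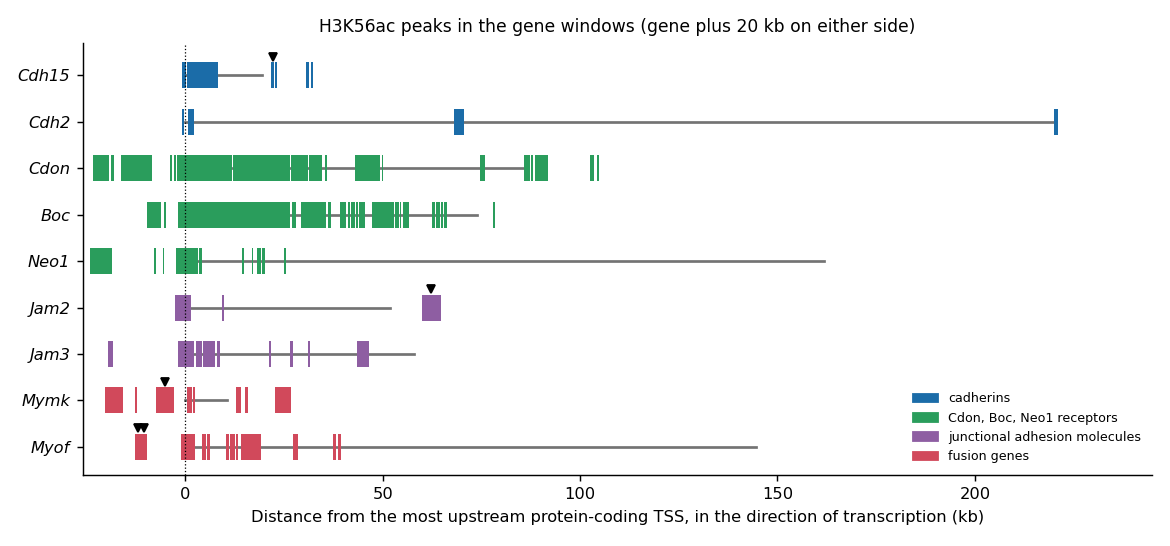
H3K56ac peaks (boxes) in the window of each gene, plotted by distance in kb from the most upstream protein-coding TSS (dotted line) in the direction of transcription; the grey line is the annotated gene, colours give the role, and black triangles mark peaks over the TSS of another gene outside the member's own TSS peak. Cdon and Boc carry 22 and 24 peaks, with 98.3% and 99.3% of the 5′ 25% of the gene covered, and Cdh2 carries 4 over the longest gene of the 9.

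Coverage of the gene body ranged from 2.03% in Cdh2 to 69.3% in Boc. In descending order it was 69.3% in Boc, 49.4% in Cdon, 41.4% in Cdh15, 21.4% in Jam3, 17.7% in Mymk, 10.3% in Myof, 4.24% in Neo1, 3.89% in Jam2 and 2.03% in Cdh2. The median over all coding genes was 7.82% and the upper quartile 23.8%, so that Boc, Cdon and Cdh15 lay above the upper quartile, Jam3, Mymk and Myof between the median and the upper quartile, and Neo1, Jam2 and Cdh2 below the median. The members differed in length from 10.5 kb (Mymk) to 220.4 kb (Cdh2). Among coding genes within 20% of the same length, Boc stood at percentile 98.4 of body coverage, Cdon at 94.5, Cdh15 at 91.7, Jam3 at 81.4, Myof at 63.1, Mymk at 60.4, Neo1 at 42.7, Jam2 at 33.5 and Cdh2 at 31.0. The order was nearly that of the raw values, with Myof above Mymk once length was taken into account. Over the 9 genes Spearman's rho between length and body coverage was -0.37, a description of genes that share 1 peak list.

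**Figure D2:**
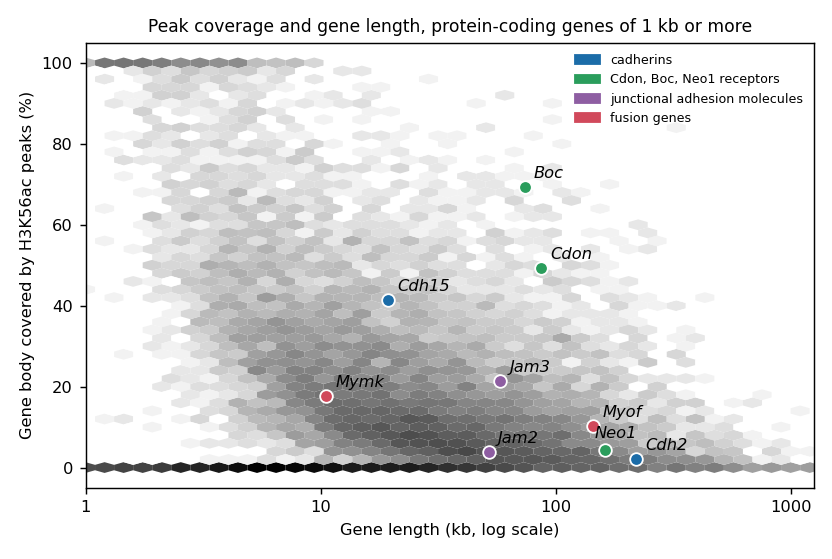
Percent of the gene body under H3K56ac peaks against gene length (kb, log scale); grey hexagons count protein-coding genes of 1 kb or more (darker for more genes) and coloured points are the 9 members. Boc (69.3%), Cdon (49.4%) and Cdh15 (41.4%) lie above most genes of their length, and Cdh2, Neo1 and Jam2 lie below 5% in the dense band at the bottom.

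The cadherins, the homophilic adhesion molecules, differed widely: Cdh15 came after Boc and Cdon in body coverage, and Cdh2 was last. Cdh15 (ENSMUSG00000031962.6, chr8:122847966-122867397, plus strand) encodes M-cadherin, the cadherin of MuSCs and myoblasts. Its window held 7 peaks and 19.8% was covered. A peak of 599 bp (chr8:122847436-122848034) lay over the GENCODE TSS, reaching 530 bp upstream and only 68 bp into the gene. A much wider peak of 7972 bp (chr8:122848336-122856307) began 370 bp downstream of the TSS, overlapped exon 1 and extended through part of intron 1. The RefSeq start of Cdh15 lay 408 bp downstream of the GENCODE one and fell under the 7972-bp peak. Which of these starts the cells use cannot be read from the peaks, and either choice put the start under a peak. The remaining 11.1 kb of the gene, 57.1% of its length, had no peak. The 4 downstream peaks were 510 to 974 bp wide, and one of 797 bp lay over the TSS of Gm45894. Cdh15 overlaps the annotated gene Gm20388, so peaks within Cdh15 lie in both annotations.

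Cdh2 (ENSMUSG00000024304.14, chr18:16588877-16809246, minus strand) encodes N-cadherin, which also joins MuSCs to the myofiber. Its window held 4 peaks, 2.20% was covered, and neighbouring peaks were a median of 65792 bp apart. The most upstream coding TSS (chromosome 18, position 16809246) fell between 2 peaks: one of 546 bp ended 380 bp upstream and one of 1518 bp began 632 bp downstream. The downstream peak covered the TSS of a retained-intron transcript, and through it the gene counts as having a TSS peak when all annotated starts are used. The other peaks were one of 2702 bp in intron 2 and one of 970 bp over exon 16 at the 3′ end. The widest promoter peak of Cdh2 ranked at percentile 13.8 among the 14872 coding genes that have one, compared with percentile 92.5 for Cdh15.

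The receptors Cdon, Boc and Neo1 share an architecture of immunoglobulin and fibronectin type III repeats. Cdon and Boc associate with cadherins at sites of contact between myoblasts and promote differentiation, and both also bind Hedgehog proteins. Neo1 encodes neogenin, a receptor for netrins and repulsive guidance molecules. Cdon and Boc carried the most extensive H3K56ac of the members, and Neo1 did not share it.

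Cdon (ENSMUSG00000038119.15, chr9:35421128-35507652, plus strand) had 22 peaks in its window, which was 48.5% covered, at percentile 97.3 of coding genes. The peak over its TSS was 11169 bp wide and reached 2069 bp upstream and 9099 bp into the gene. A second wide peak of 12336 bp (chr9:35433174-35445509) lay in intron 1. Counted with gaps under 1 kb closed, the region around the TSS was 39.7 kb long (chr9:35417134-35456880), the longest of the 9 genes. Of the 6 annotated TSSs of Cdon, 5 lay under peaks. RefSeq places the start of Cdon 30948 bp downstream of the most upstream GENCODE start and a peak of 4399 bp lay there too. Beyond the 5′ part, a peak of 6353 bp overlapped exons 8 and 9 and one of 1683 bp overlapped exon 20. The flanks of Cdon were also covered, 61.1% of the 20 kb upstream, which included a peak of 6329 bp, and 32.0% of the 20 kb downstream.

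Boc (ENSMUSG00000022687.12, chr16:44485049-44558897, minus strand) had 24 peaks in its window, which was 50.5% covered, at percentile 97.7. Its single annotated TSS lay under a peak of 9360 bp that reached 1962 bp upstream and 7397 bp into the gene and also contained the TSS of the microRNA gene Mir3081. A peak of 18948 bp (chr16:44532426-44551373) in intron 1 was the widest of all 105. It was separated from the TSS peak by a short gap, and with gaps under 1 kb closed the region was 30.1 kb long. Further peaks followed in introns 1, 3 and 8 and over exons 4, 8 and 9. The last 7.61 kb of the gene had none. The coverage belonged mainly to the gene itself in both Boc and Cdon, and more so in Boc. In Boc 88.9% of the covered bases were in the body, compared with 69.6% for Cdon. Of the downstream flank of Boc, 2.52% was covered.

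Neo1 (ENSMUSG00000032340.8, chr9:58874687-59036441, minus strand) had 11 peaks in its window and 5.86% was covered. A peak of 4816 bp lay over its TSS, reaching 2443 bp upstream and 2372 bp into the gene, and ranked at percentile 73.4 among widest promoter peaks. The 7 other peaks of the body were 411 to 1011 bp wide, and all lay in intron 1. From the last of these, 136.3 kb or 84.2% of the gene had no peak. A peak of 5714 bp that overlapped the upstream flank, with its nearer edge at -18555 bp from the TSS, was wider than the one over the TSS. Its farther edge, at -24268 bp, lay outside the window. Neo1 therefore had a promoter peak of ordinary width and little beyond it, whereas the promoter peaks of Cdon and Boc ranked at percentiles 97.3 and 95.4.

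The junctional adhesion molecules Jam2 and Jam3 bind each other across cell contacts, and their orthologues are required for myoblast fusion in zebrafish. Jam2 (ENSMUSG00000053062.16, chr16:84774123-84825928, plus strand) had 5 peaks and 10.4% of its window was covered. Its TSS lay under a peak of 1795 bp, reaching 287 bp upstream, and peaks of 1300 and 1068 bp followed directly upstream. One peak of 507 bp lay in intron 1, and the remaining 42.2 kb, 81.4% of the gene, had none. The widest peak of the window, 4855 bp, lay downstream over the TSSs of Atp5j and Gabpa and made up a large part of the covered bases. Only 21.2% of the covered bases of this window were in Jam2 itself.

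Jam3 (ENSMUSG00000031990.15, chr9:27097384-27155421, minus strand) had 9 peaks and 15.6% of its window was covered. A peak of 3832 bp lay over its TSS, reaching 1772 bp upstream and 2059 bp into the gene. Peaks of 1526 and 3099 bp followed in intron 1, the second over the start of a processed transcript without coding sequence, and the widest region with gaps under 1 kb closed was 10.5 kb. All 7 peaks of the body outside the TSS peak were in intron 1, the farthest being one of 3157 bp that began 43388 bp from the TSS. In Jam3, 81.4% of the covered bases of the window were in the gene and 0 bp of the downstream flank was covered. Body coverage in Jam3 (21.4%) exceeded that in Jam2 (3.89%) for genes of similar length, 58.0 and 51.8 kb.

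**Figure D3:**
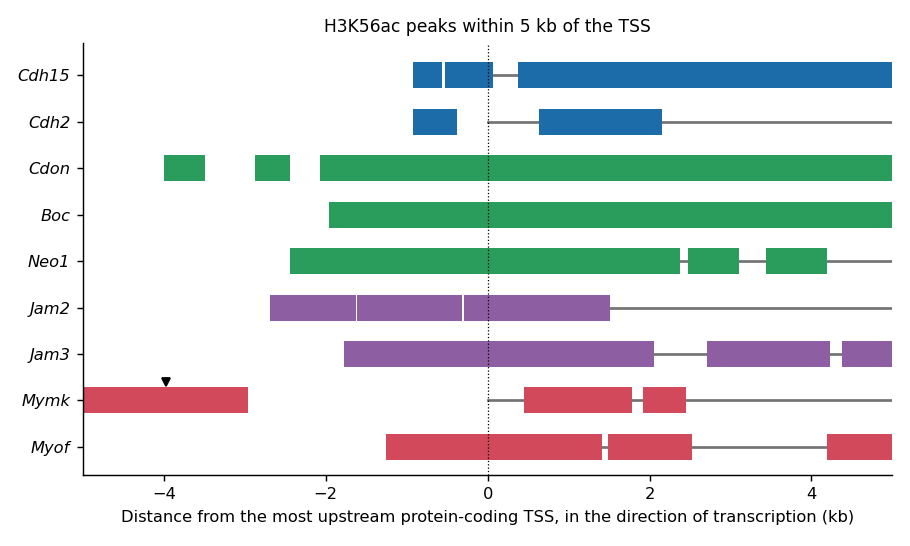
H3K56ac peaks within 5 kb of the most upstream protein-coding TSS (dotted line), by distance in kb in the direction of transcription; boxes are peaks, the grey line is the gene and the black triangle marks the peak over the Adamtsl2 TSS. The TSS lies under a peak in 7 genes, in a gap between peaks 380 bp upstream and 632 bp downstream in Cdh2, and in a gap between peaks 2956 bp upstream and 451 bp downstream in Mymk.

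Of the fusion genes, Mymk (ENSMUSG00000009214.9, chr2:27061636-27072179, minus strand) encodes Myomaker, the membrane protein that differentiating myoblasts need to fuse. Neither of its 2 annotated TSSs lay under a peak. The body held 2 peaks, both in intron 1: one of 1333 bp (chr2:27070396-27071728) that began 451 bp downstream of the TSS, and one of 532 bp (chr2:27069731-27070262). Its E-box-bearing promoter sequence printed above lay in the gap of the list. The nearest peak upstream, of 4405 bp, began 2956 bp away and lay over the TSS of the neighbouring gene Adamtsl2. This peak is the widest within 3 kb of a Mymk start, so the rank of the widest promoter peak of Mymk (percentile 68.2) belongs to a shared interval. The window of Mymk was 33.7% covered, at percentile 90.6 of coding genes, but only 10.9% of the covered bases were in Mymk. The upstream flank, which contains the TSS of Adamtsl2, was 46.2% covered by 3 peaks, and the downstream flank, without another annotated gene, was 29.8% covered by 5 peaks of 750 to 1820 bp. Mymk thus had few marked bases in the gene and many around it.

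Myof (ENSMUSG00000048612.16, chr19:37899036-38043577, minus strand) encodes myoferlin, a membrane protein of the ferlin family that takes part in the fusion and repair of membranes. Its window held 13 peaks and 10.3% was covered. A peak of 2666 bp lay over its TSS, reaching 1250 bp upstream and 1415 bp into the gene. Intron 1 held 7 further peaks, among them one of 5024 bp (chr19:38024559-38029582), and intron 3 held the remaining 3. The 3′ part of 105.0 kb, 72.7% of the gene, had no peak. Peaks of 1572 and 1328 bp in the upstream flank lay over the TSSs of I830134H01Rik and Cep55. The 4 annotated TSSs under peaks were all at the 5′ end, and the other 7 of the 11, within the gene, were not.

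By the median, the covered bases within the genes lay toward the 5′ end about as much as in coding genes with a body peak. The 25% of the gene nearest its 5′ end held 100% of the covered bases of the body in Mymk, Jam2 and Neo1, 89.4% in Myof, 60.3% in Jam3, 56.7% in Cdh15, 49.7% in Cdon, 35.8% in Boc and 33.9% in Cdh2. The median of the 9 was 60.3%, compared with 63.6% over the 15151 coding genes with a body peak. The lower shares in Boc and Cdon go with coverage that continued past this part, since the part itself was 99.3% and 98.3% covered. In Cdh2 this part was 2.76% covered. The 50% of the gene nearest its 3′ end was free of peaks in 5 members (Mymk, Jam2, Neo1, Myof and Cdh15), which is to be read against 47.8% of coding genes with a body peak. A peak reached the last base of the gene in Cdon and Cdh2.

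Peaks in the windows had a median width of 1036 bp, and the median over all peaks was 974 bp. Of the 105, 50 were under 1 kb and 9 were 5 kb or wider. The wide ones overlapped the windows of Cdon, Boc, Cdh15, Neo1 and Myof, and the one at Neo1 extended past its window. Promoter peaks of 5 kb or more were found in 3 members (Cdon, Boc and Cdh15), compared with 16.5% of coding genes. Gaps between neighbouring peaks were under 1 kb in 55 of 96 cases, or 57.3%. Such short gaps made up 17 of 23 in Boc and 15 of 21 in Cdon but 0 of 3 in Cdh2. Another gene's TSS lay under 6 of the 105 peaks, in the windows of Mymk, Jam2, Boc, Cdh15 and Myof.

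**Figure D4:**
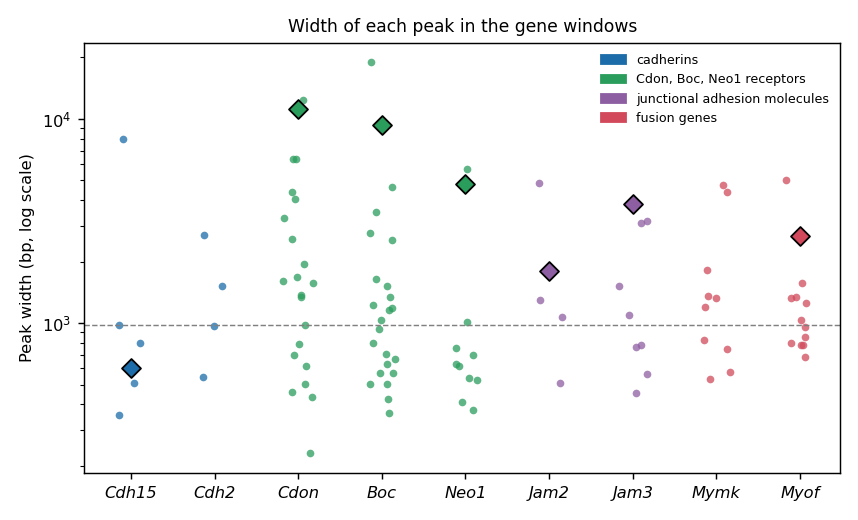
Width in bp (log scale) of each of the 105 peaks by gene; diamonds are peaks over the most upstream protein-coding TSS, circles all other peaks (scattered sideways for visibility), and the dashed line is the median of all peaks, 974 bp. The TSS peak is 11169 bp in Cdon and 9360 bp in Boc but 599 bp in Cdh15, whose 7972-bp peak lies just downstream, and Cdh2 and Mymk have no diamond.

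Adhesion genes used in MuSCs were set beside the fusion genes of differentiating cells. Window coverage had a median of 15.6% over the 7 adhesion genes and 22.0% over the 2 fusion genes, a difference of -6.46 percentage points for adhesion minus fusion. Body coverage had medians of 21.4% and 14.0%, a difference of 7.40 points in the other direction. The flanks of Mymk hold the promoter of Adamtsl2. The sign of the window difference depended on the flank and on the grouping: it was 2.20 points with flanks of 5 kb and, with flanks of 20 kb, 6.87 when Jam2 and Jam3 were counted with the fusion genes and 5.80 in longer lists of adhesion and fusion genes. With Jam2 and Jam3 moved in this way, the medians of body coverage were 41.4% over 5 adhesion genes and 14.0% over 4 fusion genes. The values of the fusion genes, 17.7% and 10.3%, lay inside the range of the adhesion genes, 2.03% to 69.3%, so the groups overlapped and no difference was established between them. An annotated TSS lay under a peak in all 7 adhesion genes and in Myof but not in Mymk. Cdh2 had it only through the retained-intron transcript, so with coding TSSs alone Cdh2 and Mymk were both without.

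Longer lists placed the members among related genes. Body coverage in these lists and in the marker lists was not ranked against genes of like length. Of 18 genes of adhesion and catenins, which include the 7 members, all 18 had a TSS peak, against 62.1% of coding genes, and in 11 a promoter peak was 5 kb or wider, against 16.5%. Vcam1 and Itga7 of this list are also MuSC markers read below, and Itga7 encodes the Integrin-a7 used in sorting. Body coverage ranged from 1.37% to 88.3% with a median of 31.9%, and was highest in Vcam1 (88.3%), an adhesion receptor used to sort MuSCs, Boc (69.3%) and Jup (56.3%), which encodes the junctional catenin plakoglobin. Of 20 fusion genes, which include Mymk and Myof, 15 had a TSS peak and 6 a promoter peak of 5 kb or more, to be read against the same 62.1% and 16.5%. Their median body coverage was 16.3%, from 0% to 78.7%, and the highest were the tetraspanin gene Cd9 (78.7%), the endocytic recycling gene Ehd1 (74.7%) and the immunoglobulin superfamily gene Kirrel (63.9%). The fusion list thus held genes covered as heavily as the adhesion genes. Adgrb3, which encodes a receptor of the adhesion G protein-coupled family, had 0 peaks over 762232 bp and its flanks, and was the only fusion gene without a peak within 3 kb of a TSS.

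Fusion genes without a TSS peak were 5 in number, chosen for mention after their values were seen: Mymk, Mymx, Nphs1, Adgrb1 and Adgrb3. Mymx encodes Myomerger, the small protein that acts with Myomaker in fusion. It had 0 peaks in its gene body of 1132 bp, where Mymk had 2 in 10544 bp. The window of Mymx, nearly all of it flank, held 11 peaks and was 44.0% covered. The widest peak within 3 kb of a Mymx TSS was 1167 bp. The markers of differentiating muscle, which include Mymk and Mymx, had a TSS peak in 1 of 7 (Myog, encoding myogenin). A peak lay within 1 kb in 3 of 7 and within 3 kb in all 7. Over all coding genes the shares were 62.1%, 65.4% and 67.8%, in that order. The median body coverage of this list was 17.2%, and Mymk, at 17.7%, is 1 of its 7 genes. The 6 MuSC markers (Pax7, Myf5, Calcr, Vcam1, Itga7 and Sdc4) all had a TSS peak, against 62.1% of coding genes. The 6 had a median body coverage of 83.0% and a median widest promoter peak of 17479 bp. No member reached that median width. Markers of the cell types that the depletion of Sca1, CD45 and CD31 removes were also read. A TSS peak was present in 2 of 3 endothelial, 0 of 3 blood and 2 of 3 fibro-adipogenic genes, against 62.1% of coding genes. With the most upstream coding TSS alone, the counts were 1 of 3, 0 of 3 and 1 of 3, against 57.1%. No TSS peak lay over Cdh5, Ptprc, Itgam, Cd68 or Ly6a. The blood marker Cd68 nevertheless had 31.9% of its body covered and a promoter peak of 2636 bp. Dpt, a fibro-adipogenic marker, had 94.99% of its body covered and a promoter peak of 9775 bp, and Tek, an endothelial marker, had a promoter peak of 12975 bp. Body coverage was 27.5% in Pecam1, 25.04% in Tek and 11.1% in Pdgfra. The study reports that the sorted cells, when analysed again, fell well short of full purity. The part of other cell types in the peaks of the members was not tested.

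**Figure D5:**
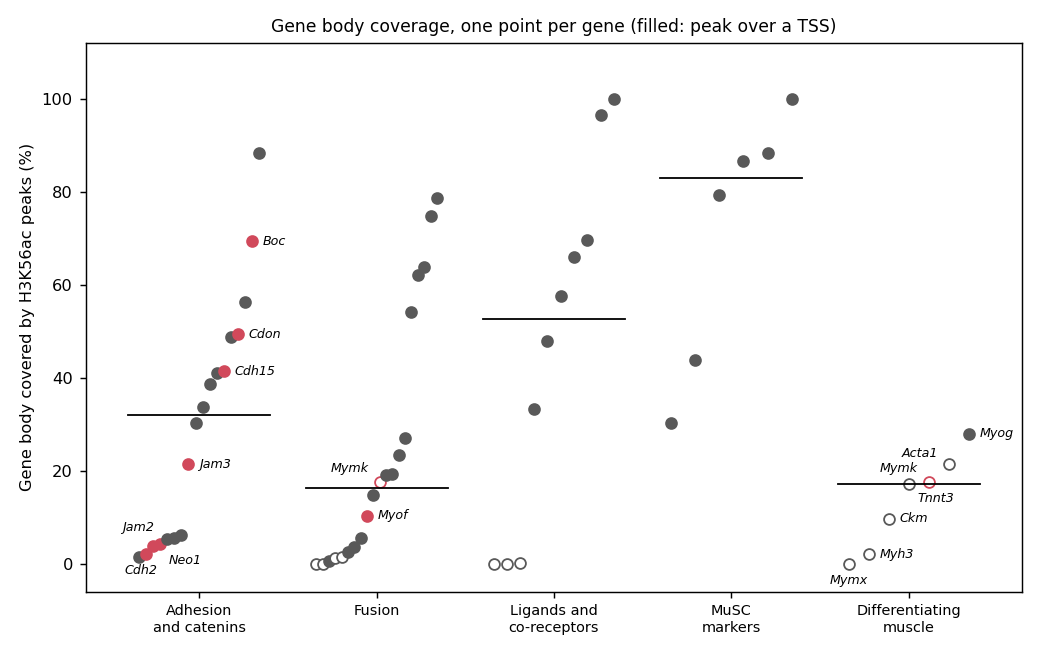
Percent of the gene body under H3K56ac peaks for each gene of the longer lists and marker lists; filled points have a peak over an annotated TSS, open points have none, red marks the 9 members and bars are list medians. All 18 adhesion genes are filled, 5 of 20 fusion genes are open, and in the differentiating muscle list only Myog is filled.

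The ligands and co-receptors of Cdon, Boc and Neo1 were divided. Of 10 genes, 7 had a TSS peak (62.1% of coding genes), and the 3 others, Shh and Ihh, which encode Hedgehog ligands, and Dcc, the netrin receptor related to Neo1, had no peak within 3 kb of a TSS. Body coverage was highest in Gas1 (100%), a Hedgehog co-receptor gene of 2961 bp, Rgmb (96.4%) and Rgma (69.6%), which encode repulsive guidance molecules that bind neogenin. The median of the list was 52.7%. The receptor gene Neo1, at 4.24%, was below Rgma and Rgmb and below the median of the list, whereas Cdon was near and Boc above the median of the list. Neo1 (161755 bp) is longer than Rgma (44391 bp) and Rgmb (27852 bp), and the part of gene length in this contrast was not tested.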

How the data were processed

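H3K56ac ChIP-seq and input libraries of Control and Sirt6mKO MuSCs were sequenced on an Ion Torrent Proton instrument. The authors trimmed reads with Trim Galore, aligned them to mm10 with bowtie, removed duplicates with Picard, called peaks with MACS2, removed blacklisted regions and merged overlapping peaks. The deposited list holds interval positions of 105600 peaks, and its deposited score is 0 in every row, so peaks cannot be ranked by strength. Read totals per library are stated by the study and were not used here. Which libraries entered the merge is not given in the sources used here. The paper reports a global increase of H3K56ac peaks in Sirt6mKO MuSCs. The peaks and coverage given for a gene may therefore include some found only in Sirt6mKO cells. The planned comparison of Sirt6mKO with Control needs values per sample and was not run.

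Peaks were joined to GENCODE vM21 genes on GRCm38 in Python 3.11.15 with pandas 2.3.3. A promoter peak lies within 3 kb of an annotated TSS of the gene. Percentiles are the share of coding genes with a lower value, and no member was filtered. Exons are numbered on the protein-coding transcript with the most exons. RefSeq promoter entries matched 4 of 9 members. The upstream sequence of 1 member is not reported here. The members and lists were chosen with earlier results of these data known. Named from the longer lists were genes without a promoter peak and the 3 with the highest body coverage in each list. Fusion genes without a TSS peak and markers of other cells were named after their values were seen. The functions were tested on simulated intervals. The alternatives changed the flank, the overlap rule, the minimum width, the joining of close peaks, the set of TSSs and the grouping of genes.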

Additional observations from a re-analysis of the deposited data

How the results depend on the processing

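Of 33 alternative values for 8 results, 19 stayed close to the value reported, 10 moved and 4 reversed. Close meant within 1.5-fold or, for percent covered, inside an interval that treats bases as independent. Moved values kept their sign, and a shift from 17.6% to 17.5% was already counted as moved. The 105 peaks became 69 without flanks and 50 with gaps under 1 kb closed, which also raised the median width to 2850 bp, as fewer bases or fewer intervals are counted by construction. Coverage of 17.6% became 17.5% without flanks, 18.5% with flanks of 5 kb and 15.1% with 50 kb. The difference of median window coverage, -6.46 points for adhesion minus fusion, reversed to 7.40 without flanks, 2.20 with 5 kb, 6.87 with Jam2 and Jam3 among the fusion genes and 5.80 in the longer lists, and was -2.67 with 50 kb; the cause was not tested. The difference of body coverage, 7.40 points, became 27.4 with Jam2 and Jam3 moved and 15.6 in the longer lists. Peaks within 3 kb of another gene's TSS fell from 7 to 4 with TSSs of coding transcripts only. Members with a TSS peak numbered 7 with the most upstream coding TSS alone, an alternative chosen after seeing the data. Without signal values in the list, an uncovered base cannot be told apart from one marked below the calling threshold. No paired analysis was possible because the list holds no values per sample.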

Other observations

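The density of the E-box word CAGCTG in the peaks differed among the members. Over all 105600 peaks it occurred 0.609 times per kb, and over the 105 peaks of the 9 windows 0.626 times. It was most frequent in the peaks of the Mymk window, with 21 occurrences or 1.20 per kb in 17.5 kb of peak, and in those of Cdh15, with 13 or 1.10 per kb. The 7972-bp peak of Cdh15 held 10 of its 13. In the Mymk window, the intron 1 peaks of 1333 and 532 bp held 3 and 2, and the peak of 4405 bp over the Adamtsl2 TSS held 8. Jam3 had 0.917 per kb, Jam2 0.840, Myof 0.682, Boc 0.521, Cdon 0.510 and Neo1 0.249, and the 4 peaks of Cdh2 held 0. The heavily covered genes Boc and Cdon, with 30 and 33 occurrences, were a little below the density of all peaks, a difference that was not tested. The median GC content of peaks was 50.9% in the Mymk window and 55.9% in that of Cdh15, compared with 45.8% over all peaks, and the part of base composition in these counts was not tested. TGANTCA occurred 0.308 times per kb in the member peaks and 0.318 in all peaks. A match is a description of letters and not of a bound site.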
